A study of Homo sapiens with 12 samples.

Results

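The mRNA levels of 10 genes of autophagy, out of 20003 genes with a usable symbol, were examined in 2 leukemia cell lines incubated with OGP46. The 10 genes were chosen by name, with earlier results of these data known, so their counts beside the shares of all genes are descriptive. They include the receptors SQSTM1, NBR1, OPTN and TAX1BP1 and the ATG8 family genes GABARAPL1 and MAP1LC3B. The others are the initiation and membrane genes ULK1 and WIPI1, and the transcription factors TFEB and TFE3. Autophagy encloses proteins, aggregates and organelles in a membrane that fuses with the lysosome. Receptor proteins link ubiquitin-tagged cargo to ATG8 family proteins on that membrane and are degraded together with the cargo, so the levels of their mRNA and protein need not move together. TFEB and TFE3, of the MiT/TFE family, switch on autophagy and lysosome genes once they enter the nucleus, a step that is controlled on the protein and is not visible in an mRNA level.

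NB4 cells come from an acute promyelocytic leukemia and carry the fusion gene PML-RARα. Kasumi-1 cells come from an acute myelogenous leukemia (AML) and carry the fusion gene AML1-ETO. OGP46 is a diterpenoid made from oridonin, a natural product of the ent-kaurane type, and was tested by the study for its effect on differentiation. Each cell line gave 3 control samples with DMSO and 3 samples with 1 μM OGP46, incubated for 48 h by the sample labels, although the legend of the study's mRNA-seq figure gives a longer time. Each leukemia type is represented by 1 cell line, so a difference between the 2 lines cannot be assigned to the leukemia types. The labels do not say whether the 3 samples of a group came from separate cultures, so all p-values measure the spread between these samples. The values are FPKM as deposited, which are fragments scaled to exon length and to the mapped fragments of the sample. They summed to between 248207 and 310262 per sample, and between 9339 and 9746 genes per sample reached 1 FPKM. Read depth is unknown, so no counting error is given and the precision rests on 3 samples per group. In bulk RNA, fewer cells with a transcript and less transcript per cell cannot be told apart.

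RUNX1T1, the fusion partner present in Kasumi-1 cells, and 4 further Kasumi-1 marker genes summed to between 263 and 299 FPKM in the Kasumi-1 controls and to at most 3.60 FPKM in the NB4 controls, as the labels say. The 3 NB4 markers summed to 16.8 to 20.4 FPKM in the NB4 controls and to 12.3 to 16.3 FPKM in the Kasumi-1 controls. They did not all follow the labels: STAB1 was higher in NB4 controls (9.21 against 0.332 FPKM), but HGF was lower there (8.83 against 13.5 FPKM) and FGF13 was listed at 0 in all NB4 samples. Among markers of other cell types, the T-cell and B-cell genes CD2 and MS4A1 were listed at 0 in the controls of both lines, but others were present. The T-cell gene CD3D was at 13.5 to 20.4 FPKM in the NB4 controls and at 22.5 to 34.6 FPKM with OGP46 (log2 fold change 0.72, limma adjusted p = 0.072, called with the block at 0.00022), and the epithelial gene EPCAM was at 41.4 to 56.0 FPKM in the Kasumi-1 controls. The part of such genes in the results was not tested.

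Of the 10 genes, SQSTM1 rose in Kasumi-1 cells, and none passed the test in NB4 cells when samples were treated as unpaired. A gene was called when limma gave a Benjamini-Hochberg adjusted p below 0.05 over all genes tested and a log2 fold change on the log2(FPKM + 0.1) scale of at least 0.58 in size, a 1.49-fold change. Over all genes, 1.45% were called higher in NB4 cells and 0.0169% in Kasumi-1 cells. Samples with the same number in a cell line deviated together, so the same comparisons were also made with the replicate number as a block. With the block, 3 of the 10 genes passed in NB4 cells (OPTN, MAP1LC3B and TFE3), against 5.06% of all genes, and SQSTM1 stayed the only one of the 10 in Kasumi-1 cells, against 0.27% of all genes. No member was called lower in either line. At an unadjusted p below 0.05, whatever the size, 5 were higher in NB4 cells, against 27.5% of all genes, and 7 in Kasumi-1 cells, against 12%. The 7 include OPTN, which met the minimum mean of 0.1 FPKM there only through its OGP46 samples. Without OPTN the count was 6 of 9. The unpaired calls in NB4 cells changed when a library was left out. There were 183 calls over all genes, but 0 to 2 when any sample but OGP46 replicate 2 was left out, and 396 without that sample. Such a fit also has fewer samples, and the part of that in the lost calls was not tested.

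**Figure D1:**
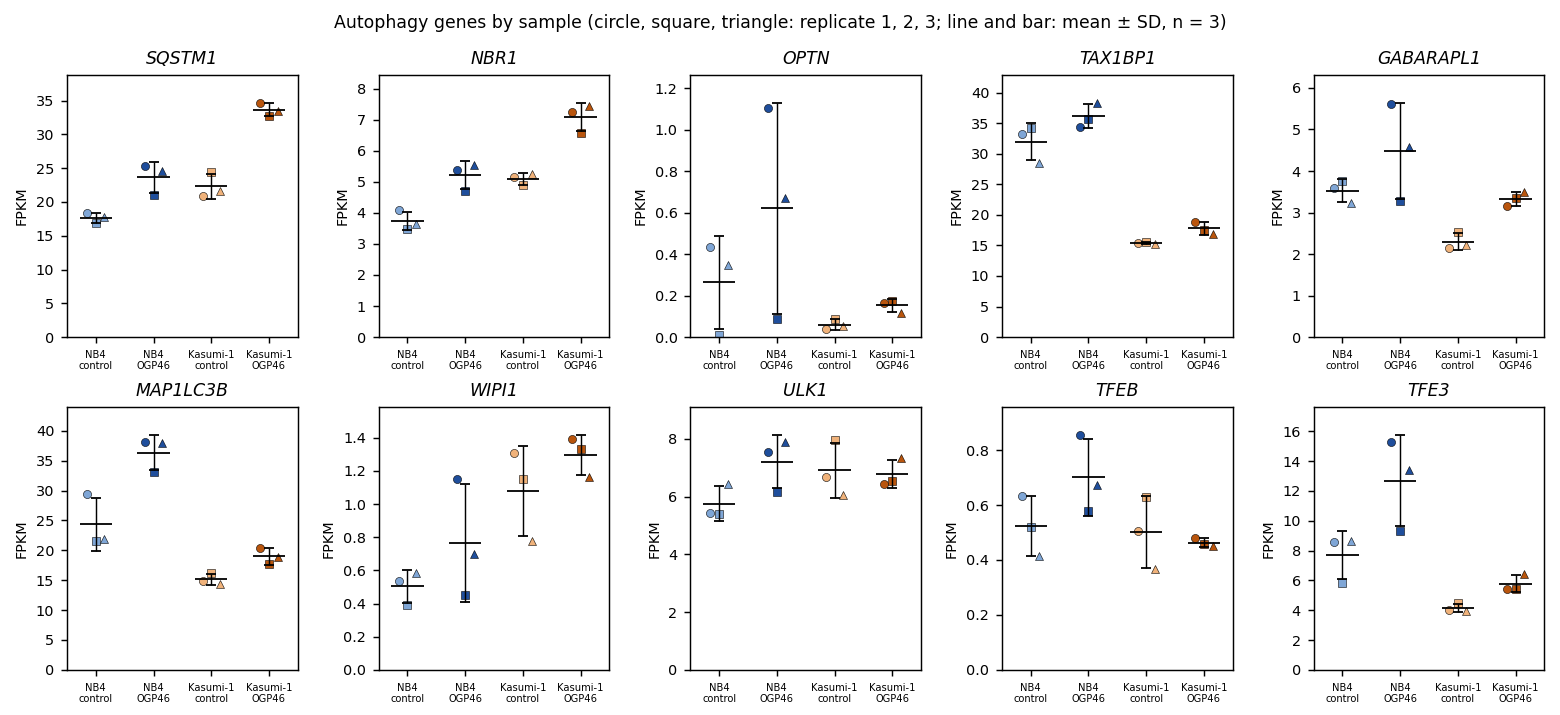
FPKM of the 10 genes (vertical axis of each panel, from 0) in the 12 samples, with symbols for replicates 1 to 3 and the mean ± SD of 3 samples. In Kasumi-1 cells the 3 OGP46 samples lie above the 3 controls for 7 genes, against 17.4% of all genes, and in NB4 cells for 5, against 32.7%. The 7 include OPTN, which met the minimum mean of 0.1 FPKM in Kasumi-1 cells only through its OGP46 samples. Replicate 2 of NB4 is the lowest OGP46 sample for 9 of the 10 genes.

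SQSTM1 encodes the best known autophagy receptor, which gathers ubiquitin-tagged proteins into bodies, and lies at chr5:179806398-179838078 on the plus strand (GRCh38, GENCODE 29). It was the most abundant of the 10 mRNAs in Kasumi-1 cells. The stretch upstream of its start that overlaps no annotated exon, from RefSeq (chr5:179806335-179806392, GRCh38.p14, plus strand), is shown because SQSTM1 is the gene called without pairing. The capitals mark a GC box (GGGCGG, or its reverse complement) on each strand:

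SQSTM1: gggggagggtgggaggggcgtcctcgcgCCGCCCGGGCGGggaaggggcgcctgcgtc

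In Kasumi-1 cells, SQSTM1 was at 20.8, 24.4 and 21.6 FPKM in controls 1 to 3 and at 34.7, 32.7 and 33.5 FPKM with OGP46. The groups did not overlap, and the means were 22.3 ± 1.91 and 33.7 ± 0.992 FPKM (SD, n = 3). The log2 fold change was 0.59 ± 0.07 (SE; limma adjusted p = 0.0242), larger than that of 99.1% of the genes tested. It lay just above the fold threshold, and the call was lost without control replicate 1 (0.55, adjusted p = 0.128), control replicate 3 (0.57, adjusted p = 0.0521), OGP46 replicate 1 (0.57, adjusted p = 0.095) or OGP46 replicate 2 (0.61, adjusted p = 0.095). With the block the adjusted p was 0.00445.

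In NB4 cells, SQSTM1 was at 18.3, 16.8 and 17.7 FPKM in the controls and at 25.3, 20.99 and 24.6 FPKM with OGP46. Here too all OGP46 samples lay above all controls, but the log2 fold change of 0.42 ± 0.09 (SE; limma adjusted p = 0.0592) was below the fold threshold, and it stayed below it with the block (adjusted p = 0.00617). Of the SQSTM1 exon bases, 20.7% lie opposite exons of MRNIP, and the sources do not say whether the counting used strand. The log2 fold changes of MRNIP itself were −0.31 in NB4 cells (limma adjusted p = 0.291) and −0.26 in Kasumi-1 cells (adjusted p = 0.295).

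NBR1 encodes a receptor with the same domain plan as SQSTM1 that also binds ubiquitin and ATG8 proteins (chr17:43170481-43211689, plus strand). In NB4 cells it was at 4.08, 3.49 and 3.65 FPKM in the controls and at 5.39, 4.69 and 5.55 FPKM with OGP46. Its values in Kasumi-1 cells were 5.15, 4.89 and 5.24 FPKM in the controls and 7.26, 6.56 and 7.44 FPKM with OGP46. The groups overlapped in neither line. The log2 fold change was 0.47 in both, with a standard error of 0.11 in NB4 cells (limma adjusted p = 0.0659, with the block 0.00858) and of 0.08 in Kasumi-1 cells (adjusted p = 0.0611, with the block 0.0109). Neither reached the fold threshold. The ratio of SQSTM1 to NBR1 FPKM was 4.72 ± 0.205 and 4.53 ± 0.138 in NB4 controls and OGP46 samples, and 4.39 ± 0.531 and 4.76 ± 0.242 in those of Kasumi-1 (SD, n = 3), and the ranges of control and OGP46 samples overlapped in both lines.

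OPTN, optineurin, is a receptor for damaged mitochondria and bacteria (chr10:13099449-13138308, plus strand) and was the least abundant of the 10 mRNAs in all 4 groups. In NB4 cells it was at 0.434, 0.0113 and 0.349 FPKM in the controls and at 1.10, 0.0878 and 0.671 FPKM with OGP46. The groups overlapped because replicate 2 was near 0 in both, yet OGP46 was the higher sample in each pair, by 1.17, 0.76 and 0.78 on the log2 scale. The log2 fold change of 0.90 ± 0.77 (SE; limma adjusted p = 0.445) was therefore called only with the block (SE 0.22, adjusted p = 0.0149). Unpaired, it ranged from 0.19 without control replicate 2 to 1.69 without OGP46 replicate 2, and leaving out a sample gave no call. In Kasumi-1 cells OPTN was at 0.0393, 0.0876 and 0.0533 FPKM in the controls and at 0.165, 0.176 and 0.116 FPKM with OGP46. Those groups did not overlap, and the log2 fold change was 0.66 ± 0.27 (SE; limma adjusted p = 0.28). The pseudocount of 0.1 understates the change of a gene at this level: the ratio of the mean FPKM was 2.35 in NB4 and 2.54 in Kasumi-1 cells.

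TAX1BP1 encodes a receptor of protein aggregates (chr7:27739331-27844564, plus strand) and had the highest mean of the 10 mRNAs in NB4 controls. In NB4 cells it was at 33.2, 34.2 and 28.5 FPKM in the controls and at 34.4, 35.7 and 38.4 FPKM with OGP46. Kasumi-1 cells had 15.4, 15.5 and 15.3 FPKM in the controls and 18.9, 17.6 and 16.9 FPKM with OGP46. The groups did not overlap in either line, though narrowly in NB4 cells, but the log2 fold changes were small: 0.18 ± 0.09 (SE; limma adjusted p = 0.225) and 0.21 ± 0.06 (adjusted p = 0.17). In NB4 cells that is the median of all genes, and after centring each sample on its median gene the value turned to −0.04.

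MAP1LC3B encodes LC3B, the ATG8 protein most used as a marker of autophagosomes (chr16:87383995-87404779, plus strand). In NB4 cells it was at 29.5, 21.6 and 21.9 FPKM in the controls and at 38.1, 33.0 and 37.9 FPKM with OGP46. The groups did not overlap, and the means were 24.3 ± 4.47 and 36.3 ± 2.88 FPKM (SD, n = 3). The log2 fold change of 0.59 ± 0.13 (SE; limma adjusted p = 0.0567) was called with the block (adjusted p = 0.00168) and, unpaired, without OGP46 replicate 2 (0.66, adjusted p = 0.0409). In Kasumi-1 cells MAP1LC3B was at 14.8, 16.2 and 14.4 FPKM in the controls and at 20.4, 17.6 and 18.9 FPKM with OGP46. These did not overlap either, with a log2 fold change of 0.32 ± 0.07 (SE; limma adjusted p = 0.105, with the block 0.0459) below the fold threshold. MAP1LC3B2, a near-identical copy between which reads can be divided, was at 2.12 ± 0.631 and 3.65 ± 0.723 FPKM in NB4 controls and OGP46 samples (SD, n = 3).

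GABARAPL1, an ATG8 gene of the GABARAP branch (chr12:10212458-10223130, plus strand), was at 3.59, 3.76 and 3.22 FPKM in the NB4 controls and at 5.60, 3.28 and 4.57 FPKM with OGP46. It was the only one of the 10 genes that was not higher with OGP46 in all 3 NB4 pairs, its second pair differing by −0.19 on the log2 scale. In Kasumi-1 cells GABARAPL1 was at 2.15, 2.53 and 2.22 FPKM in the controls and at 3.16, 3.34 and 3.49 FPKM with OGP46. There the groups did not overlap. The log2 fold changes were 0.31 ± 0.18 in NB4 (SE; limma adjusted p = 0.282) and 0.52 ± 0.10 in Kasumi-1 cells (adjusted p = 0.0747, with the block 0.0192), both below the fold threshold.

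ULK1 encodes the kinase that starts autophagy (chr12:131894651-131923167, plus strand). It was at 5.44, 5.38 and 6.44 FPKM in the NB4 controls and at 7.54, 6.16 and 7.90 FPKM with OGP46, and the groups overlapped. Its log2 fold change in NB4 cells was 0.31 ± 0.13 (SE; limma adjusted p = 0.146, with the block 0.0391). In Kasumi-1 cells it was at 6.68, 7.96 and 6.07 FPKM in the controls and at 6.44, 6.55 and 7.34 FPKM with OGP46. These groups lay within each other, with a log2 fold change of −0.02 (95% interval −0.25 to 0.21, limma adjusted p = 0.946).

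WIPI1, which binds the lipid of the growing membrane (chr17:68420948-68457513, minus strand), was at 0.535, 0.394 and 0.584 FPKM in the NB4 controls and at 1.15, 0.450 and 0.698 FPKM with OGP46. Its spread was wide, mostly through OGP46 replicate 1, and the log2 fold change was 0.45 ± 0.30 (SE; limma adjusted p = 0.335). In Kasumi-1 cells it was at 1.31, 1.15 and 0.779 FPKM in the controls and at 1.39, 1.33 and 1.16 FPKM with OGP46, with a log2 fold change of 0.27 ± 0.18 (SE; adjusted p = 0.496). The groups overlapped in both lines. Of the WIPI1 exon bases, 24.3% lie opposite exons of ARSG, whose log2 fold change was 0.44 in each line (limma adjusted p = 0.2 in NB4 and 0.326 in Kasumi-1 cells). How far reads of ARSG enter the WIPI1 value was not tested.

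TFE3, the MiT/TFE factor on the X chromosome (chrX:49028726-49043486, minus strand), was the more abundant of the pair TFEB and TFE3 in every sample. The stretch upstream of its start that overlaps no annotated exon, from RefSeq (chrX:49043487-49043607, GRCh38.p14, minus strand), is shown because TFE3 had the smallest adjusted p of the 10 genes for OGP46 against control with the block. The capitals mark a CCAAT box, which lies on the opposite strand:

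TFE3: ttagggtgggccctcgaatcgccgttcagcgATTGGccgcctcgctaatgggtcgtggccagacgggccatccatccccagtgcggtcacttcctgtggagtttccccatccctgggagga

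In NB4 cells, TFE3 was at 8.58, 5.84 and 8.65 FPKM in the controls and at 15.3, 9.31 and 13.4 FPKM with OGP46. Every OGP46 sample lay above every control, and the pairs differed by 0.82, 0.66 and 0.63 on the log2 scale. The log2 fold change was 0.71 ± 0.21 (SE; limma adjusted p = 0.0883). It was called with the block (SE 0.09, adjusted p = 0.00051) and, unpaired, without OGP46 replicate 2 (0.91, adjusted p = 0.0328). The study places TFE3 among its changed NB4 genes, in the transcriptional misregulation in cancer pathway, at the same thresholds of 0.05 and 0.58. The unpaired comparison of all 6 samples here did not call it. The study's text gives neither the test nor the direction for TFE3. In Kasumi-1 cells TFE3 was at 4.04, 4.47 and 3.95 FPKM in the controls and at 5.45, 5.45 and 6.43 FPKM with OGP46. The groups did not overlap there either, and the log2 fold change was 0.46 ± 0.09 (SE; limma adjusted p = 0.0829, with the block 0.0279), below the fold threshold.

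TFEB, the factor most studied as a regulator of lysosome genes (chr6:41683978-41736259, minus strand), was at 0.632, 0.522 and 0.416 FPKM in the NB4 controls and at 0.853, 0.577 and 0.673 FPKM with OGP46. In Kasumi-1 cells it was at 0.504, 0.630 and 0.367 FPKM in the controls and at 0.480, 0.458 and 0.451 FPKM with OGP46. The groups overlapped in both lines, with log2 fold changes of 0.36 ± 0.21 (SE; limma adjusted p = 0.273) and −0.07 ± 0.20 (adjusted p = 0.895). TFE3 exceeded TFEB by a factor of 15.2 ± 4.99 in NB4 controls, 18.0 ± 1.92 in their OGP46 samples, 8.62 ± 1.91 in Kasumi-1 controls and 12.5 ± 1.55 in the OGP46 samples there (SD, n = 3), on the length-corrected FPKM scale.

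**Figure D2:**
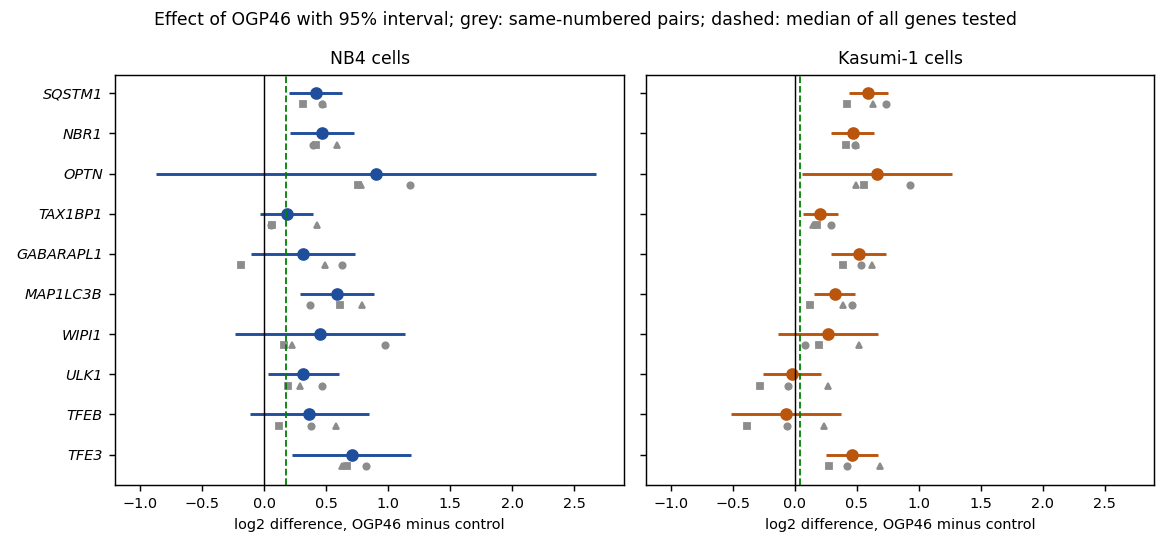
Log2 difference of each gene between OGP46 and control (horizontal axis), with the 95% interval of the unpaired limma comparison, the 3 same-numbered pairs in grey and the median of all genes as a dashed line. The interval of OPTN in NB4 cells runs from −0.87 to 2.68, while its 3 pairs lie between 0.76 and 1.17.

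Read over the 10 genes, the OGP46 and control samples did not overlap, with OGP46 higher, for 5 in NB4 cells (SQSTM1, NBR1, TAX1BP1, MAP1LC3B and TFE3), where the same held for 32.7% of all genes. In Kasumi-1 cells this was so for 7 (the same 5 with OPTN and GABARAPL1), against 17.4% of all genes. OPTN entered the Kasumi-1 comparison through its OGP46 samples, since its control mean lay below the filter of 0.1 FPKM, so it had to differ, and without it the count was 6 of 9. OGP46 was the higher sample in all 3 pairs for 9 of the 10 in NB4 cells, against 52.9% of all genes, and for 8 in Kasumi-1 cells (7 of 9 without OPTN), against 31.7%. The median log2 fold change of the 10 was 0.43 in NB4 and 0.39 in Kasumi-1 cells (0.32 without OPTN), where that of all genes tested was 0.18 and 0.05. Since the 10 were chosen with earlier results of these data known, these counts do not measure an excess over all genes. An exact permutation test of 3 against 3 samples cannot go below p = 0.1 for a single gene.

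The values in NB4 cells depended on the scale. Centring each sample on its median gene moved the median of all NB4 genes from 0.18 to −0.04 and that of the 10 genes to 0.21, and with TPM scaling these were 0.06 and 0.32. With the block and median centring, MAP1LC3B (log2 fold change 0.37, limma adjusted p = 0.0102) and TFE3 (0.49, adjusted p = 0.0155) kept an adjusted p below 0.05 but not the fold, and no member was called. With the block and TPM scaling, OPTN and TFE3 were called. Over all genes, the block gave 595 higher and 135 lower genes in NB4 cells as deposited, and 188 higher and 203 lower after median centring. In Kasumi-1 cells centring moved the median of the 10 from 0.39 to 0.33, and SQSTM1 to 0.53 (adjusted p = 0.0169), under the fold threshold.

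Markers of other cell states also moved with OGP46 in NB4 cells. Of 8 monocyte and macrophage markers, 4 were called higher there, against 1.45% of all genes. They were C5AR1 (log2 fold change 1.93, limma adjusted p = 0.0432), ITGAX (1.11, adjusted p = 0.0335), ITGAM (1.083, adjusted p = 0.0233) and CD68 (0.62, adjusted p = 0.0399). None of these 4 was called after TPM scaling or median centring without the block, where no gene at all was. The sum of the 8 was 287 to 410 FPKM in the controls and 291 to 398 with OGP46, but LYZ made up most of it (318 ± 63.9 and 314 ± 52.3 FPKM, SD, n = 3, log2 fold change −0.01), so the sum does not reflect the other 7. With the block 6 of the 8 were called higher, against 5.06% of all genes, with CD14 (1.67, limma adjusted p = 0.00049) and CSF1R (0.60, adjusted p = 0.00921) in addition. The 6 myeloid blast markers summed to 2626 to 3897 FPKM in the NB4 controls and to 1630 to 2817 with OGP46, and in Kasumi-1 cells to 9572 to 11814 and 7732 to 8907, although none of the 6 passed the unpaired limma test in either line (2 higher and 2 lower in NB4, 1 higher and 3 lower in Kasumi-1 cells at an unadjusted p below 0.05). MPO made up most of the NB4 sum (2896 ± 469 and 2095 ± 520 FPKM, SD, n = 3). With the block 3 of the 6 fell in NB4 cells, PRTN3 (−1.36, adjusted p = 1.4e-05), AZU1 (−0.62, adjusted p = 0.00064) and ELANE (−2.17, adjusted p = 0.00234), and none in Kasumi-1 cells. CD33 and SPI1 went the other way in NB4 cells (0.30 and 0.27, limma adjusted p with the block 0.0326 and 0.0324), below the fold threshold. CD33 did so in Kasumi-1 cells too (0.36, with the block 0.0177). None of the 6 monocyte markers tested in Kasumi-1 cells passed (2 higher at an unadjusted p below 0.05). The part of these markers in the autophagy gene values was not tested.

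A test of the difference between the lines used an interaction term in a model of the 12 samples. Here a call needed an adjusted p below 0.05 and no minimum fold. No gene was called (0% of all genes, while 1348 had an unadjusted p below 0.05, none of them among the 10). With the block, 1.93% of all genes were called, again none of the 10. The estimates, as NB4 minus Kasumi-1 log2 fold change, ran from −0.21 for GABARAPL1 to 0.43 for TFEB (95% interval −0.17 to 1.03). The interval for ULK1 was −0.04 to 0.71, for MAP1LC3B −0.08 to 0.61, for TFE3 −0.31 to 0.79 and for SQSTM1 −0.43 to 0.07. NBR1 had nearly the same value in both lines, with an interval of −0.29 to 0.28. The absence of a call does not show that the lines responded alike.

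**Figure D3:**
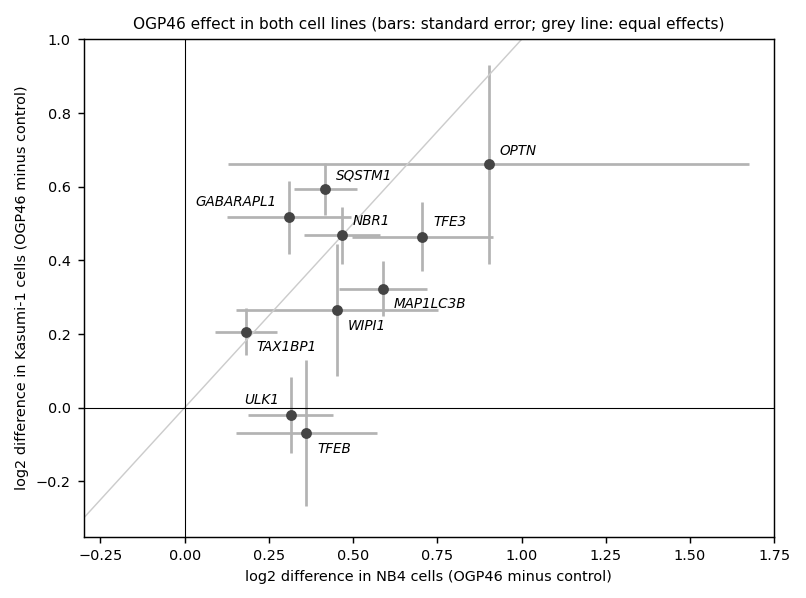
Log2 difference between OGP46 and control in NB4 cells (horizontal axis) and in Kasumi-1 cells (vertical axis), with standard errors. Of the 10 genes, 8 lie above 0 in both lines, and ULK1 and TFEB lie near 0 in Kasumi-1 cells (−0.02 and −0.07). The median of all genes tested also lies above 0 in both lines (0.18 in NB4 and 0.05 in Kasumi-1 cells). The share of all genes above 0 in both lines was not counted.

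The mean of the effects in both lines, a comparison added after the data had been seen, rests on all 12 samples. Here 6 of the 10 genes were higher at an adjusted p below 0.05 whatever the size, against 15.2% of all genes. They were SQSTM1 (log2 fold change 0.51 ± 0.06, limma adjusted p = 0.00232), NBR1 (0.47 ± 0.07, adjusted p = 0.00327), MAP1LC3B (0.46 ± 0.08, adjusted p = 0.00649), TFE3 (0.59 ± 0.13, adjusted p = 0.0138), GABARAPL1 (0.41 ± 0.11, adjusted p = 0.0274) and TAX1BP1 (0.19 ± 0.05, adjusted p = 0.0322). After median centring 3 of them remained at an adjusted p below 0.05, SQSTM1, NBR1 and MAP1LC3B, against 1.36% of all genes, and after TPM scaling these 3 and TFE3, against 5.11%. Only TFE3 also reached the fold threshold and was called, against 0.999% of all genes. That call rests on a value just above the threshold: it fell to between 0.49 and 0.58 without NB4 control replicate 2 or OGP46 replicate 1 or 3, or without Kasumi-1 control replicate 1 or 3 or OGP46 replicate 3. With the block, OPTN was called as well (0.78, limma adjusted p = 0.00342, unpaired 0.241), where 168 of 12309 genes were called higher. The Kasumi-1 control mean of OPTN was only 0.0601 FPKM.

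The lines started from different levels. In the controls, TAX1BP1 was higher in NB4 than in Kasumi-1 cells by 1.046 ± 0.083 on the log2 scale (SE; limma adjusted p = 4.4e-06), TFE3 by 0.85 ± 0.15 (adjusted p = 0.00082), MAP1LC3B by 0.67 ± 0.12 (adjusted p = 0.00092) and GABARAPL1 by 0.59 ± 0.11 (adjusted p = 0.00128). These 4 were called higher, as were 22.7% of all genes, and WIPI1 was called lower in NB4 cells (−0.95 ± 0.22, adjusted p = 0.00326), as were 29.7%. SQSTM1 (−0.34, adjusted p = 0.0048) and NBR1 (−0.44, adjusted p = 0.00301) were lower in NB4 cells by less than the fold threshold. ULK1 (−0.25, adjusted p = 0.0872), TFEB (0.06, adjusted p = 0.8) and OPTN (0.91 ± 0.53, adjusted p = 0.145) did not pass. GABARAPL1 fell under the fold threshold without NB4 control replicate 1 (0.58) or 2 (0.55) or without Kasumi-1 control replicate 1 (0.55) or 3 (0.57), and MAP1LC3B without NB4 control replicate 1 (0.52). The value of OPTN ranged from 0.49 without NB4 control replicate 1 to 1.62 without NB4 control replicate 2, the sample in which it was near 0, where it passed (adjusted p = 0.00021).

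The order of the levels followed from this. In NB4 controls TAX1BP1 and MAP1LC3B led with 31.9 and 24.3 FPKM and overlapped each other, SQSTM1 came next at 17.6, and TFE3 (7.69) overlapped ULK1 (5.75). NBR1 and GABARAPL1 overlapped at 3.74 and 3.52 FPKM. TFEB, WIPI1 and OPTN, all near or below 0.5 FPKM, overlapped from neighbour to neighbour. In Kasumi-1 controls SQSTM1 led with 22.3 FPKM, TAX1BP1 and MAP1LC3B overlapped at 15.4 and 15.2, and every later neighbour was separate: ULK1 at 6.90, NBR1 at 5.09, TFE3 at 4.15, GABARAPL1 at 2.30, WIPI1 at 1.080, TFEB at 0.500 and OPTN at 0.0601. With OGP46, MAP1LC3B and TAX1BP1 overlapped at the top in NB4 cells (36.3 and 36.2 FPKM), and SQSTM1 at 33.7 FPKM stood clear of MAP1LC3B at 19.0 in Kasumi-1 cells.

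Around the 10 genes, 103 further genes of the pathway in 6 lists were counted. In NB4 cells 97 were tested, of which none fell and 3 rose, where 1.45% of all genes were called higher. They were CCPG1, a receptor for the endoplasmic reticulum (9.86 ± 2.60 FPKM in controls, 18.1 ± 1.33 with OGP46, log2 fold change 0.90, limma adjusted p = 0.041), MCOLN1, the calcium channel of the lysosome (0.62, adjusted p = 0.047), and NEU1, a lysosomal sialidase (0.59, adjusted p = 0.045). No gene at all was called in NB4 cells after TPM scaling or median centring without the block, these 3 included. With the block MAP1LC3B2 passed too (0.78, limma adjusted p = 0.0154), which made 4 of the 97, against 5.06% of all genes. At an unadjusted p below 0.05, 39 of the 97 were higher and 0 lower in NB4 cells, against 27.5% and 1.61% of all genes. In Kasumi-1 cells 99 were tested and none passed in either direction by limma, paired or not (22 of the 99 higher and 1 lower at an unadjusted p below 0.05, against 12% and 3.65% of all genes). The median log2 fold change of these genes was 0.25 in NB4 and 0.12 in Kasumi-1 cells, beside 0.18 and 0.05 for all genes tested.

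By list, 1 of 16 other receptors tested in NB4 cells rose (CCPG1), as did 1 of 19 MiT/TFE family and regulator genes (MCOLN1) and 1 of 18 lysosomal TFEB targets (NEU1). None of 3 other ATG8 genes, 29 core machinery genes and 12 kinases and partners of the receptors passed there by limma, where 3, 9 and 2 of them were higher and none lower at an unadjusted p below 0.05, a criterion that 27.5% of all genes met in the higher and 1.61% in the lower direction. GABARAP, the most abundant ATG8 gene, was at 64.0 ± 2.60 FPKM in NB4 controls and 83.2 ± 14.01 with OGP46 (log2 fold change 0.36, limma adjusted p = 0.108), and at 92.0 ± 9.69 and 93.5 ± 1.73 FPKM in Kasumi-1 cells (SD, n = 3). Among the core genes, ATG4D, a protease that trims ATG8 proteins, came closest in NB4 cells (0.41, adjusted p = 0.0364, under the fold threshold). NFE2L2, which encodes the NRF2 factor that SQSTM1 protein can release from KEAP1, had a log2 fold change of 0.28 in NB4 cells (adjusted p = 0.11).

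The MiT/TFE family differed most between the lines in TFEC. TFEC was at 6.32, 5.82 and 5.93 FPKM in the Kasumi-1 controls and at 7.79, 7.54 and 8.08 FPKM with OGP46, against at most 0.0915 FPKM in any NB4 sample. Between the controls TFEC was lower in NB4 cells by −5.38 ± 0.19 on the log2 scale (SE; limma adjusted p = 6.1e-08), the gene being singled out after its values were seen. In Kasumi-1 cells TFEC was thus above TFE3 on the FPKM scale, and its log2 fold change with OGP46 was 0.37 ± 0.07 (adjusted p = 0.0755, with the block 0.0244), below the fold threshold. MITF, the fourth member of the family, had group means between 0.0801 and 0.142 FPKM. Among the Rag GTPases, which recruit TFEB and TFE3 to the lysosome, RRAGD was lower in NB4 controls (−3.00 ± 0.32, limma adjusted p = 2.9e-05). RRAGB was lower there too (−1.53 ± 0.13, adjusted p = 5.6e-06), RRAGA was higher (2.30 ± 0.06, adjusted p = 4.5e-08) and RRAGC was not called (−0.23, adjusted p = 0.0624). Of all genes, 22.7% were called higher and 29.7% lower in NB4 controls.

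**Figure D4:**
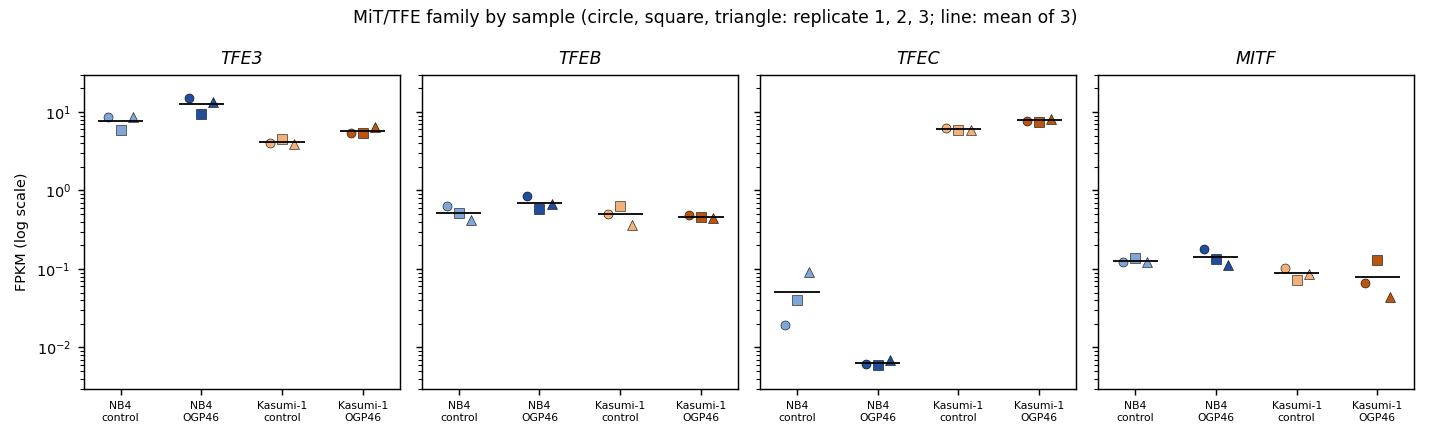
FPKM on a log axis of the 4 MiT/TFE family genes in the 12 samples, with the group mean as a line. TFE3 is the leading member in NB4 cells (group means of 7.69 and 12.7 FPKM), and TFEC reaches 7.80 FPKM in Kasumi-1 cells with OGP46 while staying below 0.1 FPKM in NB4 cells.

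Over the 12 samples, after each line's mean was subtracted, the members above 1 FPKM followed each other to different degrees. Pearson's r was 0.938 between SQSTM1 and NBR1, 0.913 between NBR1 and MAP1LC3B, 0.876 between MAP1LC3B and TFE3 and 0.160 between TAX1BP1 and ULK1. Among 9943 genes values most like SQSTM1 included those of COPS7A (r = 0.962) and KLHL12 (0.960), the values most like TFE3 those of KIF13B (0.974), ACBD5 (0.973) and FTH1 (0.967), and the values most like GABARAPL1 those of SLC17A5 (0.899), HACD4 (0.891) and BLVRB (0.888). The treatment and the scale of each library are common to all these points.

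The promoters of the 10 genes, 250 bases before to 50 after the RefSeq start, were searched on both strands for short motifs, beside those of 35116 promoters in all. CACGTG, the core of the sites that MiT/TFE factors bind, was in none of the 10 windows and in 7.26% of all promoters, and its longer form TCACGTGA was in none and in 0.98%. The strict antioxidant response element TGACTCAGC was in none and in 0.561%, while its loose core TGANNNNGC was in 3 (NBR1, MAP1LC3B and WIPI1) and in 41.8% of all. The GC box GGGCGG, added after the data had been seen, was in 9 of the 10, in all but TAX1BP1, and in 45% of all promoters. The GC content of the 10 windows ran from 33% in TAX1BP1 to 79.7% in WIPI1. The 35116 promoters were neither matched for GC content nor limited to measured genes, so an enrichment was not tested. The CCAAT box, also added then, was in WIPI1 and TFE3 and in 34.6% of all. These letters were searched in the windows only, so nothing follows for sites elsewhere in the genes.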

How the data were processed

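mRNA-seq was measured in 12 samples, 3 per group of cell line and treatment. The authors deposited 1 FPKM value per gene symbol and sample, made from stranded poly(A) libraries. The submitters' processing notes name Trimmomatic, HISAT2, Cufflinks, HTSeq and hg38, with no versions. The annotation, the strand setting and the authors' test for differential expression are not given in the sources used here. No counts were used, and 632 deposited values lie above 0 and below 1e-04, so FPKM were estimates. Removing 27 symbols turned into dates left 20003 genes, of which 19261 (96.3%) are in GENCODE 29.

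From the FPKM, log2(FPKM + 0.1) was compared with limma 3.58.1 in R 4.3.3 with a mean-variance trend, over genes averaging 0.1 FPKM or more, and adjusted by Benjamini-Hochberg over all genes tested. That left 11750 genes in NB4 cells, 11835 in Kasumi-1 cells, 12309 in the models of all 12 samples and 12302 between the controls. All 10 members passed this filter in each comparison, OPTN in Kasumi-1 cells through its OGP46 samples. The script was also run on simulated data, with noise drawn separately for each sample and without pairing or a shift of whole libraries. That run does not bear on how reliable the calls in these data are.

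The replicate numbers come from the sample titles. Over genes averaging 5 FPKM or more, deviations from the group means correlated between same-numbered samples at 0.66, 0.85 and 0.44 in NB4 and 0.42, 0.43 and 0.62 in Kasumi-1 cells, all above the limit of 0.1 set for pairing. The controls of the 2 lines showed none (mean 0.008), so their numbers pair samples only within a line.

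The members and lists were chosen with earlier results of these data known. Named besides the 10 members were listed genes that passed or, where none did, those with the smallest p, at most 2 per list. The 3 genes most like SQSTM1, GABARAPL1 and TFE3 were also named. A few genes that these rules select are not reported here. TFEC, RRAGA, RRAGB, RRAGC, RRAGD, GABARAP, NFE2L2 and MPO were partly chosen after their values were seen, as were the neighbouring genes. Alternatives were other pseudocounts, filters and scalings, no trend, the replicate block, a joint model, unadjusted p and leaving out each sample.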

Additional observations from a re-analysis of the deposited data

How the results depend on the processing

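Of the 10 genes, the counts of calls moved as follows. In NB4 cells 0 were called, but 2 at an unadjusted p below 0.05, 1 with a minimum of 1 FPKM, 3 with the replicate block, 2 with the replicate block and TPM scaling, 2 in the joint model, and 0 to 2 when a sample was left out. In Kasumi-1 cells 1 was called, but 2 at an unadjusted p and 0 with a pseudocount of 1, with no filter on low values, with median centring, with moderation without a trend or with the block and median centring, and 0 to 1 without a sample. SQSTM1 ranged from 0.53 to 0.66 there. For the mean of both lines 1 was called, but 0 with a pseudocount of 1, TPM scaling or median centring, 2 with the block, and 0 to 2 without a sample. Between the controls 5 were called, but 3 with a pseudocount of 1, and 3 to 5 without a sample. The interaction gave 0 in every alternative, 0 to 0 without a sample. Pairing with the block changed no other call of the 10.

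Over all genes, the 183 calls in NB4 cells became 663 at an unadjusted p, 117 with a pseudocount of 1, 4 without the filter, 0 with TPM scaling, 0 with median centring, 4 without a trend, 498 in the joint model, and 0 to 396 without a sample. With the replicate block they were 730, with the block and median centring 391, and with the block and TPM scaling 452. The 4 calls in Kasumi-1 cells became 143 at an unadjusted p, 2 with a pseudocount of 1, 0 without the filter or the trend, 24 with a minimum of 1 FPKM, 18 with TPM scaling, 18 with median centring, 1 in the joint model, and 0 to 11 without a sample. With the block they were 73, with the block and median centring 93, and with the block and TPM scaling 98. The interaction went from 0 calls to 1348 at an unadjusted p, 14 with a pseudocount of 1, 237, 144 and 129 with the block alone, with median centring and with TPM scaling, and 0 to 1 without a sample. The 165 calls for the mean of both lines became 43 with a pseudocount of 1, 109 with a minimum of 1 FPKM, 85 with TPM scaling, 72 with median centring and 97 to 247 without a sample, and the 6449 between the controls were 6366 to 6449 without a sample. The causes were not tested.

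Signs turned only for values near 0: TAX1BP1 in NB4 cells (−0.0391 after median centring, with or without the block) and the interaction of NBR1 (0.0018 with a pseudocount of 0.01). When a sample was left out, signs turned for ULK1 (−0.11 to 0.0858) and TFEB (−0.24 to 0.0832) in Kasumi-1 cells, for the interactions of NBR1 (−0.0546 to 0.0710), TAX1BP1 (−0.11 to 0.0250), OPTN (−0.47 to 1.03) and WIPI1 (−0.12 to 0.47), and for TFEB between the controls (−0.11 to 0.22). With no counts, the depth that limits OPTN, TFEB and WIPI1 is unknown.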
